A study of Mus musculus with 3 samples.

Results

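Tmsb4x, Tmsb10, Actb, Actg1, Pfn1 and Cfl1 encode abundant proteins that form, store, charge or release the monomers of the actin cytoskeleton. These 6 genes of the 32287 features counted were taken by their symbols, and all 6 were found. The set was chosen by the UMI count and the spread over cells of Tmsb4x in this same matrix, where it was already known as the most abundant transcript and as one that varied more than counting predicts. Those 2 properties are therefore given as descriptions, and the text follows what its level went along with.

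The cells were mouse PC cells, 1 culture with no replicate, measured by droplet single-cell RNA sequencing with a 3' kit. They came from esophageal organoids of Trp53 floxed/floxed mice in which Ad-Cre-EGFP, an adenovirus with Cre recombinase and a green fluorescent protein, had deleted Trp53, and Cdkn2a had then been knocked out by CRISPR/Cas9. All cells expressed Cas9 constitutively, had received a barcode library by transfection, and were sorted live for a red fluorescent protein after 3 passages. They had been moved from organoids into DMEM with 10% FBS and Y-27632, a small molecule, and were kept without it before analysis. The strain, sex and age of the mice and the number of clones behind the culture were not stated in the labels, and per the labels the whole culture carried both knockouts, so there was no untreated group. Editing was not checked in single cells: Cdkn2a transcripts were counted, at 0.928 UMIs per 1500 UMIs of a cell, and 3' counts do not show whether the coding sequence is intact. The matrix is not tied by name to 1 of the 3 libraries in the labels and was treated as 1 sample.

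Of 18116 barcodes, 14925 had at least 500 genes, at least 1000 UMIs (unique molecular identifiers, each standing for 1 captured RNA molecule) and at most 20% mitochondrial UMIs. The labels speak of about 20000 recovered cells. The kept cells held 45443280 UMIs, with a median of 2955 per cell (range 1000 to 23453) and a median of 1499 genes. No barcode occurred more than once, since there was only 1 matrix. With 1 sample no test was possible, so no p-value is given, and every interval covers counting error only.

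Actin exists as single monomers and as filaments, and cells keep a large monomer pool ready for assembly. The beta-thymosins bind monomers and hold them out of filaments, profilin exchanges their nucleotide and delivers them to growing ends, and cofilin severs old filaments and returns monomers to the pool. Free monomer also holds the cofactors of the transcription factor SRF away from DNA, and SRF targets include actin genes and contractile genes of smooth muscle.

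The pair of thymosins is shown by its coding sequences, because both transcripts share a common layout while their levels in these cells lay far apart. Both coding sequences had 135 bases, and 95 of them, 70.4%, were identical without any gap. They are given here 5′ to 3′ from GENCODE M21, and capitals mark the bases at which they differ.

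Tmsb4x: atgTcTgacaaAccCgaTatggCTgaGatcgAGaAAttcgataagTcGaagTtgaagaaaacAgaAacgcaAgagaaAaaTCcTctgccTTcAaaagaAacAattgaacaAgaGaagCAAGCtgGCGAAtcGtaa

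Tmsb10: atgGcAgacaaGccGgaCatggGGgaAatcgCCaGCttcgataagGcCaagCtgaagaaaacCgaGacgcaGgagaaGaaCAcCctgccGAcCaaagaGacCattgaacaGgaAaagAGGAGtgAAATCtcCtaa

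The differing bases were spread along both sequences, with the longest unbroken runs of capitals near the stop codon. The cytoplasmic actins Actb and Actg1 were closer to each other, with 1000 of 1128 coding bases identical, or 88.7%. On GRCm38 in GENCODE M21, Tmsb4x (ENSMUSG00000049775) lies at chrX:167207093-167209315 on the minus strand and Tmsb10 (ENSMUSG00000079523) at chr6:72957347-72958748 on the minus strand. Actb (ENSMUSG00000029580) lies at chr5:142903115-142906754, Actg1 (ENSMUSG00000062825) at chr11:120345690-120348542 and Pfn1 (ENSMUSG00000018293) at chr11:70651850-70654644, all 3 on the minus strand. Cfl1 (ENSMUSG00000056201) lies on the plus strand at chr19:5490455-5495201.

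A 3' kit reads the end of a transcript, where the members are told apart. Of the 50-base words in the last 500 transcript bases of Tmsb4x, Actg1, Pfn1 and Cfl1, 0% occurred in another annotated gene. For Tmsb10, 61.9% of the words were shared with 5 other genes, of which 1, Gm9844, was in the matrix with 141 UMIs. For Actb, 9.31% were shared with Lrrc58, which had 6438 UMIs. Reads placed in more than 1 gene are a limit on the Tmsb10 and Actb counts, and their treatment is not given in the sources used here.

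Tmsb4x had 948641 UMIs, a level of 20875 CPM (UMIs per 1000000 UMIs summed over cells, 95% Poisson interval 20833 to 20917). It ranked 1 among all features and took 2.09% of all UMIs. Levels of different genes are set side by side as molecules of 3' ends, a scale that does not grow with transcript length. Tmsb10, the other beta-thymosin, stood at 1291 CPM (1281 to 1302), rank 112, so there were 16.2 Tmsb4x molecules (16 to 16.3) for each of Tmsb10.

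Among the actins, Actb reached 5054 CPM (5034 to 5075), rank 12, and Actg1 3858 CPM (3840.4 to 3877), rank 19, a ratio of 1.31. Pfn1, profilin 1, reached 2923 CPM (2907 to 2939), rank 32. Cfl1, the non-muscle cofilin, reached 1312 CPM (1301 to 1323), rank 108. The summed thymosin transcripts stood at 2.49 for each transcript of the summed cytoplasmic actins.

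At least 1 Tmsb4x UMI was found in 97.7% of cells (exact binomial interval 97.5 to 98.0), against 85.8% for Tmsb10, 95.8% for Actb, 94.5% for Actg1, 95.2% for Pfn1 and 88.6% for Cfl1. No class of cells lacked the genes, so free RNA could not be gauged from the members themselves. As a gauge from another gene, Vim, the intermediate filament gene of mesenchymal cells, stood at 1025 CPM in 1 cluster described next and at 4.08 and 3.48 CPM in the 2 largest clusters.

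To describe where the levels were high or low, cells were clustered with the members, all listed actin genes, GFP and Scar held out of the features. This gave 10 clusters, numbered by size, with 7 of at least 500 cells. Cluster 4 (1963 cells) was mesenchymal-like, with 8 of 13 mesenchymal markers raised (Vim, Col1a1, Col3a1, Col5a1, Zeb1, Zeb2, Fn1 and Sparc), 1 of the 13 at 0, and 5 of 8 smooth muscle markers raised (Acta2, Tagln, Cnn1, Actg2 and Myl9). Its summed mesenchymal markers reached 7579 CPM, against 193 to 1218 CPM in the other clusters.

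Cluster 3 (2101 cells) was cycling-like and led by Ccna2, Nusap1 and Ube2c, and cluster 9 (224 cells) was interferon-responding-like and led by Ifit3b, Ifit3 and Ifit1. The other clusters stayed unnamed and go by their leading genes: Prl2c3 and Wfdc18 in cluster 1, Krt7 and Sorbs2 in cluster 2, Ltf and Lcn2 in cluster 5, and Krt16 and Ly6d in cluster 7. Cluster 6, led by Zfpm2, Aff2 and Neat1, had a median of only 1214 UMIs, 9.81% mitochondrial UMIs and 89374 CPM of the nuclear RNA Malat1. The labelled epithelial origin was checked with 8 basal markers, which together stood at 436 CPM in cluster 4 and at 1401 to 5739 CPM in the other 9. Immune markers summed to at most 171 CPM and endothelial markers to at most 9.89 CPM in any cluster.

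Tmsb4x was highest in cluster 4, at 37865 CPM (37719 to 38012), which is 2.12 times the 17896 CPM of all other cells. It was lowest in cluster 6 at 3873 CPM, with cluster 5, the Ltf and Lcn2 cells, next at 9976 CPM. Between these, cluster 8 stood at 24569.9 CPM, cluster 2 at 22465, cluster 1 at 19509 and cluster 3 at 16878. Clusters 7 (16242 CPM) and 10 (15696 CPM) were the only neighbours in the order with overlapping intervals, and cluster 9 followed at 12966 CPM. The highest level was 9.78 times the lowest, or 3.80 times with cluster 6 left out.

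Tmsb10 was also highest in cluster 4, at 2022 CPM against 1163 in all other cells, a ratio of 1.74. It stood at 1754 CPM in cluster 8 and 1509 CPM in cluster 9, and was lowest in clusters 5 (791 CPM) and 6 (208 CPM). The thymosins did not keep 1 ratio: there were 18.8 Tmsb4x molecules per Tmsb10 in cluster 1 and 18.7 in cluster 4, but 12.9 in the cycling-like cells and 8.59 (8.08 to 9.14) in the interferon-responding-like cells. In that last cluster Tmsb4x was lower than in all other cells by a factor of 1.62, while Tmsb10 stood above the 1291 CPM of all cells together.

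The actins followed a like order with a smaller range. Actb ran from 6857 CPM in cluster 4 and 6233 in cluster 8 to 2903 in cluster 5 and 1268 in cluster 6. Actg1 ran from 5004 CPM in cluster 4 to 2493 in cluster 5 and 841 in cluster 6. The number of Actb molecules per Actg1 varied from 1.04 (1.00 to 1.08) in cluster 7 to 1.73 (1.60 to 1.87) in cluster 10. With cluster 6 left out, the highest level was 2.36 times the lowest for Actb and 2.01 times for Actg1.

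Pfn1 and Cfl1 did not peak in cluster 4, and with cluster 6 left out their levels had the smallest range of the 6 members. With cluster 6 the range of Pfn1, 6.25-fold, was larger than that of Actb (5.41) and Actg1 (5.95). Pfn1 was highest in cluster 8 (3603 CPM) and in the cycling-like cells (3302 CPM), and its highest level was 1.63 times the lowest without cluster 6. Cfl1 was highest in clusters 9 (1504 CPM) and 3 (1465 CPM), whose intervals overlapped, and cluster 4 stood at 1172 CPM, 0.88 of the level in all other cells. The highest Cfl1 level was 1.48 times the lowest without cluster 6. Cluster 4 also held more thymosin per actin, with 3.36 thymosin transcripts per cytoplasmic actin transcript (3.34 to 3.39) against 2.49 over all cells.

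A gene was called in a cluster when its CPM differed from that of all other cells by a ratio of at least 1.5, the higher level was at least 10 CPM and the Poisson intervals did not overlap. In cluster 4, 2 of the 6 members, both thymosins, were called higher, where 18.1% of 9112 genes were called in that direction. In cluster 5, 4 of 6 were called lower, namely Tmsb4x, Tmsb10, Actb and Actg1 (background 13.4% of 8791 genes). In cluster 6 all 6 were called lower, by factors of 4.06 to 6.32 (background 29.6% of 9465 genes), and in cluster 9 Tmsb4x alone was called lower (background 7.50% of 8996 genes). These are 13 calls in all, and the other 6 clusters had none among the members.

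**Figure D1:**
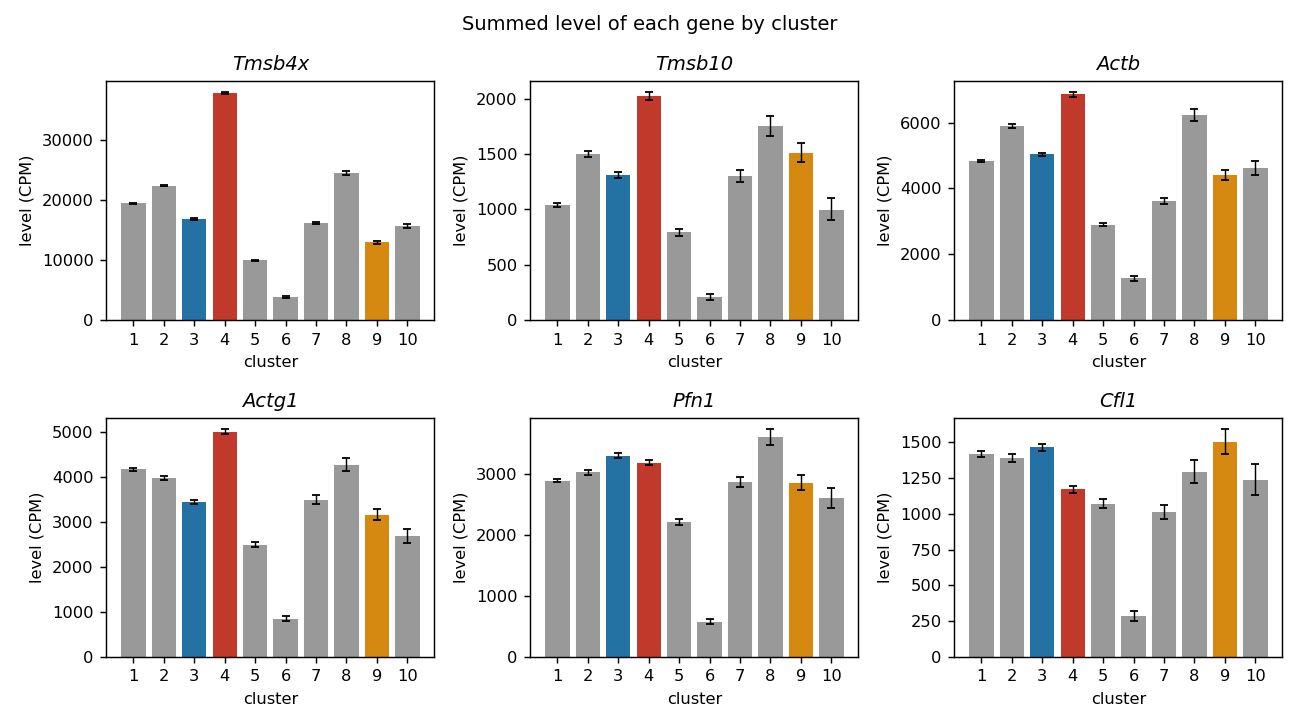
Level of each member in CPM (y axes, UMIs per 1000000 summed UMIs) in clusters 1 to 10 (x axes), with exact 95% Poisson intervals that cover counting error only. Tmsb4x and Tmsb10 were highest in the mesenchymal-like cluster 4 (red; 37865 and 2022 CPM), while Cfl1 stood at 1172 CPM there, and all members were lowest in cluster 6.

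To compare cells of unequal depth, each cell was thinned at random to 1500 UMIs, which kept 13281 cells and left out 1644 shallower ones. The thinned Tmsb4x count had a median of 26, quartiles of 15 and 41, a 5th percentile of 6 and a 95th percentile of 76. At the extremes, 111 cells had 0 and 1 cell had 231 UMIs of 1500, or 15.4% of its molecules. The other members had narrower counts: the median was 6 for Actb (95th percentile 19), 5 for Actg1 (14), 4 for Pfn1 (9), and 2 for Tmsb10 and for Cfl1 (5 each).

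The variance-to-mean ratio, which is close to 1 for pure counting, was 16.5 for Tmsb4x, rank 5 of 2624 genes whose median ratio was 1.05. Actb had 4.42 (rank 22), Actg1 3.22 (rank 32), Tmsb10 1.73 (rank 106), Pfn1 1.58 (rank 131) and Cfl1 1.32 (rank 263). This ratio grows with the level of a gene, so it was also turned into a coefficient of variation with counting variance taken out. On that scale Tmsb4x varied by 70.4% of its mean, Actb by 67.3%, Actg1 by 61.9% and Tmsb10 by 61.2%, so the 4 lay much closer together. Pfn1 (36.7%) and Cfl1 (40.6%) varied less.

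Most of the Tmsb4x spread lay inside clusters. Counting made up 5.88% of its variance, differences between cluster means 25.8%, and variation among cells of a cluster beyond counting 68.3%. Of the variance beyond counting, the share between clusters was 27.4% for Tmsb4x and 25.8% for Tmsb10, but 11% for Actb, 8.56% for Actg1, 14% for Pfn1 and 11.4% for Cfl1. Without cluster 4 the Tmsb4x share was 13.4% and its variance-to-mean ratio 11.4.

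**Figure D2:**
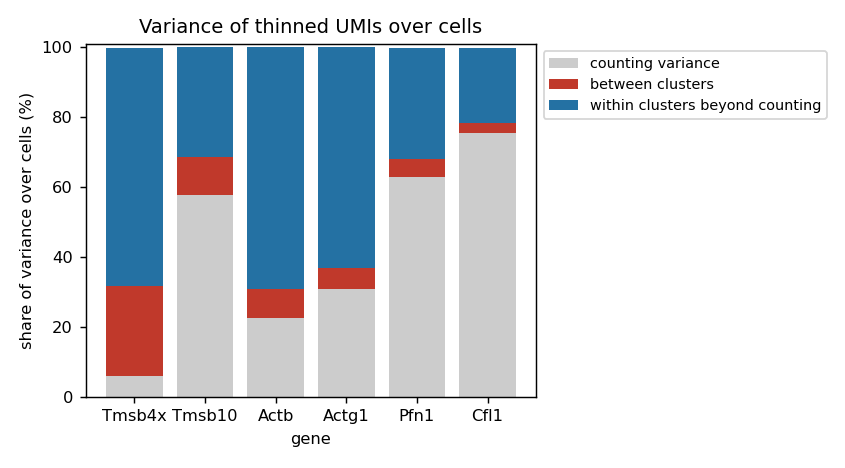
Share of the variance over 13281 thinned cells (y axis, percent) for each member (x axis), split into counting, differences between clusters, and variation within clusters beyond counting. Counting was 5.88% of the variance for Tmsb4x and 75.6% for Cfl1, and the part between clusters was largest for Tmsb4x, at 25.8%.

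Cluster 4 combined the highest level with a wide spread. Its thinned Tmsb4x counts had a median of 52, quartiles of 31 and 76 and a 95th percentile of 111, with a variance-to-mean ratio of 18.6. Cluster 5 had a median of 13 and quartiles of 8 and 19, so the upper quartile of the Ltf and Lcn2 cells lay below the lower quartile of the mesenchymal-like cells. Clusters 1, 2, 3 and 7 had medians of 25, 33, 22 and 21 and overlapped over most of their ranges. Cluster 6 had a median of 2 over the 190 cells deep enough, with 24.7% of these at 0.

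**Figure D3:**
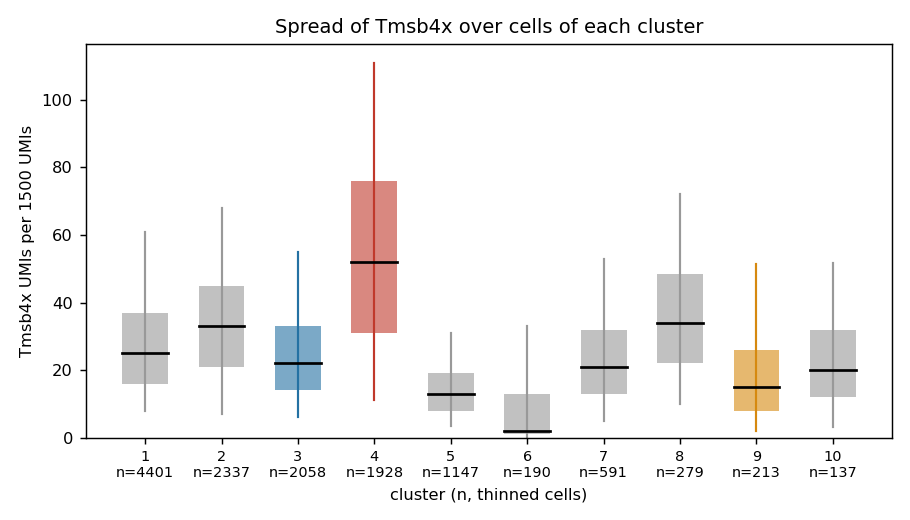
Tmsb4x UMIs per cell thinned to 1500 UMIs (y axis) in each cluster (x axis), drawn as the median, the quartiles and the 5th and 95th percentiles (blue, cycling-like; orange, interferon-responding-like; grey, unnamed). The median was 52 in the mesenchymal-like cluster 4 (red), 13 in cluster 5 and 2 in cluster 6.

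Over the 13281 thinned cells, which share 1 library and 1 fixed depth, Tmsb4x correlated most with Actb among all genes compared. The Spearman correlation was 0.46, and the cell-weighted mean within the 7 clusters of at least 500 cells was 0.37, with a range of 0.22 to 0.79. The correlation was 0.39 with Actg1 (0.31 within clusters), 0.34 with Tmsb10 (0.25), 0.30 with Pfn1 (0.27) and 0.15 with Cfl1 (0.15). At these counts the last value is weak and is not taken as a relation. A Pearson correlation of the counts with counting variance removed was 0.41 for Tmsb4x and Actb and 0.42 for Actb and Actg1. It is another measure than the Spearman values of 0.46 and 0.44 for these pairs. Their differences therefore do not show the effect of counting noise.

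The 15 pairs of members ranged from a correlation of 0.13 for Tmsb10 and Cfl1 to the 0.46 of Tmsb4x and Actb. Tmsb10 correlated more with Tmsb4x (0.34) and Actb (0.27) than with Actg1 (0.18). Pfn1 correlated with Actb at 0.33 and with Actg1 at 0.30, and Cfl1 reached at most 0.20, with Actb.

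Among the 412 genes that averaged 0.5 or more thinned UMIs, 24, or 5.83%, had a correlation of at least 0.2 with Tmsb4x, and 4 of the other 5 members were among them. The median correlation over the 412 genes was 0.00 and the range -0.26 to 0.46. The 10 highest were Actb, Acta2, Myl6, Tpm1, Actg1, Myl12a, Igfbp7, Sparc, Cald1 and Tmsb10. Apart from the members these were smooth muscle actin Acta2 (0.44, and 0.25 within clusters), the myosin light chain Myl6 (0.44 and 0.29), the tropomyosin Tpm1 (0.43 and 0.27) and the regulatory light chain Myl12a (0.39 and 0.29). The actin-binding caldesmon Cald1 reached 0.34, and the secreted proteins Igfbp7 and Sparc reached 0.38 and 0.36. Igfbp7 had no such relation inside the mesenchymal-like cluster 4, where its correlation was -0.05.

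At the lower end stood Ly6d (-0.26), Gsto1 and Cbr2 (-0.25 each), Fxyd3 (-0.24), Gm42418 (-0.21), Anxa1 and Malat1 (-0.20 each), Hsp90ab1 (-0.18), and Cxcl5 and H3f3b (-0.17 each). Ly6d, a surface antigen of squamous cells, and Fxyd3, a regulator of the sodium pump, lay at -0.11 and -0.09 within clusters. Gm42418, an RNA that overlaps ribosomal RNA repeats, and Malat1 kept -0.22 and -0.18 within clusters. Only Actb, Myl12a and Pfn1 had a correlation of at least 0.2 in every one of the 7 large clusters.

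Over the mean levels of these 7 clusters, the 5 genes whose log CPM was most like that of Tmsb4x were Actb (Pearson r 0.98), Myl6, Myl12a and Actg1 (0.97 each) and Tmsb10 (0.96). Pfn1 reached 0.90 and Cfl1 0.84. Acta2, second in the order over cells, reached 0.79. These r values rest on 7 points that include the low cluster 6, and they describe the clusters only.

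**Figure D4:**
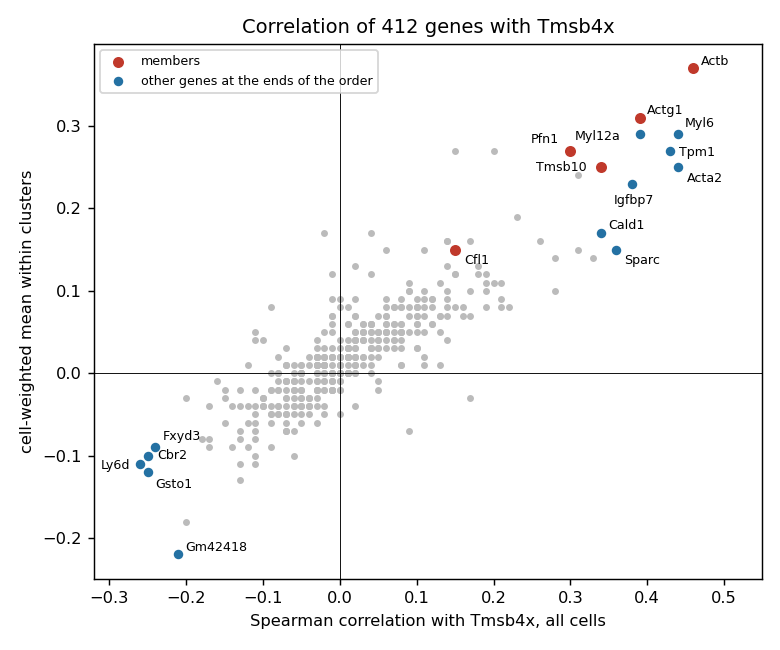
Spearman correlation with Tmsb4x for 412 genes over all 13281 thinned cells (x axis) and as the cell-weighted mean within clusters (y axis), with the members in red and the other genes at either end of the order in blue. Actb lay farthest to the upper right (0.46 and 0.37), near the contractile genes Acta2, Myl6, Tpm1 and Myl12a, while Cfl1 (0.15 and 0.15) lay closer to the bulk of genes.

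Over all cells, measures of cell size and quality had correlations with Tmsb4x smaller in size than those of Tmsb10, Actb, Actg1 and Pfn1. The size of the Malat1 correlation exceeded that of Cfl1. The correlation was 0.10 with the total UMIs of a cell before thinning, 0.06 with its number of genes, -0.08 with the mitochondrial share, -0.15 with ribosomal protein transcripts and -0.20 with Malat1. Within clusters it was 0.16 with total UMIs and -0.18 with Malat1, against 0.15 with Cfl1. The glycolysis genes lay at 0.07. The cycling markers lay at -0.08 (-0.02 within clusters), yet 9 of 10 were called lower in the top against the bottom Tmsb4x quintile described further on (median ratio 0.52, background 16.6% of genes called lower), and 2 of 10 with quintiles made within clusters. Of 3 tested nuclear-retained RNAs, 3 were called lower in the same comparison, and 2 of 3 within clusters (background 9.73% called lower). Malat1 stood at 13013 CPM in the top and 24117 CPM in the bottom quintile, a ratio of 0.54, or 0.64 within clusters. Neat1 had ratios of 0.41 and 0.60. The part of these measures in the relations of Tmsb4x was not tested. Cluster 6 was different: there the correlation with total UMIs was 0.66, with the mitochondrial share -0.71, with Malat1 -0.69 and with Actb 0.79.

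The summed counts of 15 tropomyosin, myosin and contractile genes had a correlation of 0.54 with Tmsb4x, higher than any single gene, and 0.39 within clusters. It was 0.47 over all cells but cluster 4. The smooth muscle markers reached 0.45 (0.25 within clusters) and the mesenchymal markers 0.38 (0.18). The branching complex Arp2/3 with its activators reached 0.07, the other monomer-binding and turnover genes 0.06, capping and severing genes 0.06, and formins with Ena/VASP -0.02. Crosslinking and membrane-linking genes stood between, at 0.25 and 0.18 within clusters. The lists were unlike in their mean thinned count: 15.3 for the contractile list, 5.24 for Arp2/3, 3.55 for crosslinking and 2.13 for capping genes. It was 1.67 for turnover genes, 1.63 for the smooth muscle markers and 1.12 for formins with Ena/VASP. Counting noise weighs more on low counts, and its part in the order of the lists was not tested.

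The thinned cells were next split into quintiles of Tmsb4x, with 2739 cells at 0 to 13 UMIs in the lowest and 2584 cells at 47 to 231 UMIs in the highest. From the lowest to the highest quintile the mean thinned count of Actb went through 4.23, 5.98, 7.49, 9.02 and 11.2. Actg1 went from 3.63 to 8.17, Tmsb10 from 1.21 to 2.95 and Pfn1 from 3.16 to 5.40, each higher in every next quintile. Cfl1 went through 1.54, 1.87, 2.04, 2.15 and 2.17 and flattened in the upper part. The mean Tmsb4x count itself went from 8.18 to 67.7, so each member changed by less than Tmsb4x, whose values made the quintiles.

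Cell make-up moved along with the quintiles. Cluster 4 made up 5.33% of the lowest and 42.5% of the highest quintile, and cluster 5 made up 22.6% and 0.464%. Median depth before thinning moved little, from 2906 to 3338 UMIs. For this reason the quintiles were also made inside each cluster and then pooled.

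Of the 5 other members, 4 were called higher in the top against the bottom quintile, where 7.84% of 8970 genes were called higher. Actb stood at 7463 against 2819 CPM, a ratio of 2.65, Tmsb10 at 1965 against 809 (2.43), Actg1 at 5445 against 2423 (2.25) and Pfn1 at 3599 against 2105 (1.71). Cfl1 stood at 1448 against 1027 CPM, and its ratio of 1.41 lay under the call limit. It passed the limit when cells were thinned to 1000 UMIs and when cluster 4 was left out, and its ratio ranged from 1.24 to 1.73 over the 6 alternatives.

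With quintiles made inside clusters the same 4 were called higher, with ratios of 2.13 for Actb, 1.85 for Tmsb10, 1.92 for Actg1 and 1.56 for Pfn1, and Cfl1 stood at 1.39. The background was then 1.99% of 8785 genes. Without cluster 4 the ratios within clusters were 2.17, 1.85, 1.86 and 1.55, with a background of 2.35% of 8707 genes. In clusters 1, 2, 3, 4, 5 and 7 taken singly, the Actb ratio was 2.05, 2.32, 2.21, 1.97, 1.72 and 1.99. Actb, Tmsb10 and Actg1 were called higher in each of these clusters. Pfn1 was not called in clusters 3 and 5, at 1.41 in each. Cfl1 was called higher in clusters 2 (1.58) and 7 (1.90) and not in the others, so the 2 were not cleanly split by cluster. The median ratio over all tested genes was 0.89. Each thinned cell has the same total, of which Tmsb4x takes more in the top quintile.

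The contractile list followed. Of its 15 genes, 12 were called higher in the top quintile and none lower (median ratio 2.26), and within clusters 9 of 14 tested were called higher (median 1.58). Large ratios were those of Myl9, a regulatory light chain of smooth muscle (34.88, and 3.33 within clusters), and Tagln, transgelin (16.11 and 2.26). Myl9 had 362 UMIs in the top and 11 in the bottom quintile. Within clusters without cluster 4, Myl9 stood at 9.86 against 1.38 CPM and was not called, while Tagln was called at 4.89. Among clusters 1, 2, 3, 4, 5 and 7 taken singly, Myl9 was called in 2 and 4 only. Tagln was called in 2, 3, 4 and 5, and had 1 against 4 UMIs in cluster 1. Its calls in clusters 3 (11 against 1 UMIs) and 5 (14 against 0) rested on too few UMIs for firm ratios. In cluster 2 it had 90 against 18. Cnn1, calponin 1, had 47 UMIs in the top and 2 in the bottom quintile, too few for a firm ratio. Tpm1 (3.0 and 1.71), Myl6 (3.02 and 1.92) and Myl12a (2.26 and 1.76) were also called in both. Myl12b, a near copy of Myl12a, stood at 0.87, Tpm3 at 1.10 and Cnn3 at 1.31.

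Both muscle actins abundant enough to be tested were called higher, Acta2 at a ratio of 22.56 (3.29 within clusters) and Actg2 at 16.29 (2.64). Actg2 had 169 UMIs in the top and 11 in the bottom quintile over all cells. Within clusters without cluster 4 it stood at 0 CPM in both, so its ratio within clusters came from cluster 4. Beside these ratios stand the mesenchymal markers. All 8 of the 13 that could be tested were called higher over all cells, but within clusters 3 were higher and 1 lower. The lower one was Col3a1, at 4.34 over all cells and 0.37 within clusters. Vim went from a ratio of 9.49 to 1.08. Within clusters without cluster 4, the Acta2 ratio was 5.94, and in clusters 1, 2, 3 and 4 it was 5.87, 4.49, 12.52 and 2.66. The value of cluster 3 rested on 28 UMIs in its bottom quintile. Cluster 5 had 34 Acta2 UMIs in its top and 2 in its bottom quintile, and cluster 7 had 24 and 6, too few for firm ratios.

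The relation with Acta2 was also read from the other side, by sorting cells on their thinned Acta2 UMIs. The 9660 cells with 0 Acta2 UMIs had a median Tmsb4x count of 22 (quartiles 13 and 34), the 1780 cells with 1 or 2 had 35 (24 and 48), the 1211 cells with 3 to 9 had 47 (32 and 66) and the 630 cells with 10 or more had 66 (44 and 87). Inside cluster 4 the medians were 31, 40, 56 and 67. In all other clusters they were 21, 35, 40 and 48, the last from 33 cells. Mean Vim rose there over the same bins, through 0.00657, 0.0106, 0.0189 and 0.0606 UMIs per cell. Median depth went from 3105 UMIs in the first of these bins to 2445 in the last. The part of both, and of doublets, which were not removed, in these medians was not tested.

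The Arp2/3, turnover and capping lists had few calls. Of 12 tested genes of Arp2/3 branching, 1 was called higher and none lower (Arpc5 1.73, Arpc2 1.21, Arpc3 1.00), and within clusters none of 13 was called higher and Wasf1 was called lower at 0.46. Of the other monomer-binding and turnover genes, 1 of 15 was called higher, the thymosin Tmsb15b2 at 1.89, and 1 lower, the cofilin phosphatase Ssh2 at 0.55. Cfl2 and Dstn, which encode the relatives of cofilin 1, stood at 1.44 and 1.41. Among 8 capping and severing genes, gelsolin Gsn was called higher at 1.75 (1.16 within clusters) and Eps8 lower at 0.44.

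Among 9 crosslinking and membrane-linking genes, Actn1 (3.26, and 1.99 within clusters), filamin A Flna (2.85 and 2.28) and moesin Msn (2.0 and 1.58) were called higher. Ezrin Ezr, the epithelial relative of moesin, was called lower (0.54 and 0.64), and it was below 1 in each of clusters 1, 2, 3, 4, 5 and 7 (0.57 to 0.78). Of 8 formin and Ena/VASP genes, 3 were called lower, Fmnl2 (0.58), Diaph1 (0.65) and Diaph2 (0.64), against a background of 16.6% of genes called lower over all cells.

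Of 10 tested genes of the SRF list, 5 were called higher over all cells (background 7.84%) and 3 within clusters (background 1.99%). The 3 were Fhl1 (29.75 and 3.02), Ccn2 (6.49 and 2.24) and the focal adhesion gene Zyx (2.66 and 1.62). Fhl1 had 421 UMIs in the top and 15 in the bottom quintile over all cells. Vinculin, Vcl, went from 2.17 to 1.02 within clusters. Without cluster 4 only 2 of the list, Fhl1 and Zyx, were called within clusters (background 2.35%). Fhl1 then stood at 10.2 against 2.21 CPM, and Ccn2, at 1.45, was not called. The immediate early and stress genes, whose SRF-driven members respond to other cofactors, ran the other way. Of 11 tested, 8 were called lower and none higher, and within clusters 4 were called lower, Fos (0.19 and 0.42), Atf3 (0.20 and 0.38), Egr1 (0.27 and 0.55) and Jun (0.53 and 0.62), against a background of 9.73%. Without cluster 4 the same number, 4, were called lower within clusters, with a background of 7.44%. Egr1 stood between 0.48 and 0.70 in clusters 1, 2, 3, 4, 5 and 7.

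**Figure D5:**
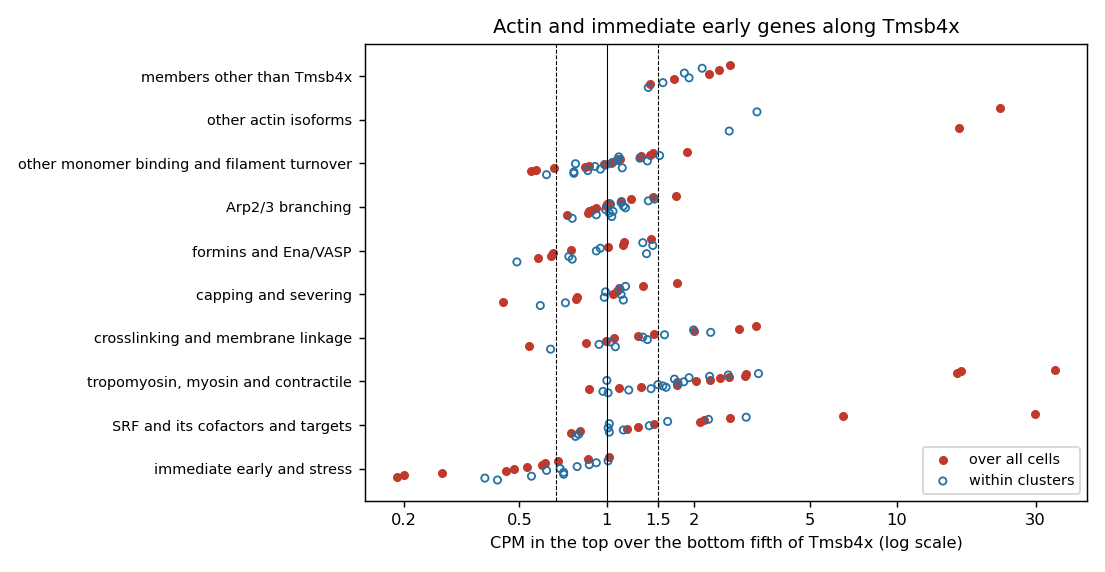
Ratio of the level in the top to that in the bottom Tmsb4x quintile (x axis, log scale) for the genes tested over all cells among the members and the actin and immediate early lists (y axis), over all cells (filled red) and with quintiles made within clusters (open blue); dashed lines mark the 1.5-fold limit. The contractile list had 12 of 15 genes called higher over all cells and 9 of 14 within clusters, while 1 of 12 Arp2/3 genes was called higher (Arpc5, 1.73) and 8 of 11 immediate early genes were called lower.

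Few of the thinned cells were low in Tmsb4x. Only 190 of the 717 cells of cluster 6 were deep enough for thinning, so the counts below hold for thinned cells only. Over all kept cells 97.7% had a Tmsb4x UMI, against 99.16% of thinned cells. At 1500 UMIs, 271 cells, or 2.04%, had 2 or fewer Tmsb4x UMIs, and 102 of them, or 37.6%, belonged to cluster 6. They averaged 83.4 Malat1 UMIs against 25.5 in the other cells, and 2.52 Actb UMIs against 7.66. Their median mitochondrial share was 4.24% and their median depth 2114 UMIs. The part of depth and RNA quality in these low values was not tested.

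Promoter sequences were read because several members correlated with Tmsb4x, and because SRF binds a known box, the CArG box. The box was searched in its consensus form on both strands in the 250 bases before each RefSeq start (GRCm38.p6). Of the 6 members, 5 were matched, all but Actb, and 1 of the 5, Actg1, held a box, while Tmsb4x, Tmsb10, Pfn1 and Cfl1 held none in this window. Over all 27025 genes with a window, 439 genes, or 1.62%, held one, as did 1.47% of all windows. Of the SRF list 5 of 10 held one, of the contractile list 3 of 14 (Myl6, Myl9 and Cnn2) and of the Arp2/3 list 1 of 11. Of the 10 genes most correlated with Tmsb4x, all but Actb, 9 were matched and 2 held a box, Actg1 and Myl6. Boxes that differ from the consensus were not searched, so a gene without a match may still hold such a box.

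The parts of the Actg1 and Tmsb4x windows that lie upstream of the GENCODE gene are shown as the cases with and without a box, both on the minus strand and read 5′ to 3′. The capitals in Actg1 at chr11:120348543-120348745 mark the CArG box, which begins 90 bases before the RefSeq start. Tmsb4x at chrX:167209316-167209468 has no capitals, since no match was found. A match is a description of letters and not a measured binding site.

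Actg1: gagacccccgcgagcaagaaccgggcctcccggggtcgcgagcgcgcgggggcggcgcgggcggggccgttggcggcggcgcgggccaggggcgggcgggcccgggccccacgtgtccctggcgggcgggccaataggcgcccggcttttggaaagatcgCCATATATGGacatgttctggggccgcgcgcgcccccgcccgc

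Tmsb4x: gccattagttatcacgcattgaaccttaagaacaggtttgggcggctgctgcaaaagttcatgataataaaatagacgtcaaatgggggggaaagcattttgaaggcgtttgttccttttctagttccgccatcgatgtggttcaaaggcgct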

How the data were processed

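The authors deposited 1 matrix of UMI counts, whole numbers per feature and barcode. Per the file headers, CellRanger 8.0.1 made it. The submitters' processing notes name the build mm10 and Scanpy 1.8.2. The lowest deposited barcode total was 500 UMIs. Nothing had been normalized, and the treatment of reads that fit several genes is not given in the sources used here.

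From the deposited counts, barcodes were filtered, levels were computed as CPM of summed UMIs, and intervals are exact 95% Poisson or Clopper-Pearson intervals. Cells were clustered with scanpy 1.11.5 and igraph 0.11.9 (counts per 10000, log1p, 2000 variable genes, 30 components, 15 neighbours, Leiden resolution 0.6), with 101 genes held out. A cluster was named only with at least 3 raised markers and 2 among its 10 leading genes. Scrublet called 1 of 14925 cells at an expected rate of 5%, too few for a working call, so doublets were not removed. Cells were thinned to 1500 UMIs with a fixed seed. Correlations are Spearman's over cells, with no p-value. Those with counting variance removed and those over cluster levels are Pearson's.

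The members, gene lists, markers, tests and alternatives were chosen with earlier results of these data known. The genes named are the 6 members, the 10 highest and 10 lowest correlations with Tmsb4x, the 5 most alike over clusters, up to 3 genes of each actin list with the largest quintile ratio, and leading genes of clusters. Other genes named were chosen after their values were seen, among them Myl12b, Tpm3, Cnn3, Arpc2, Arpc3, Wasf1, Cfl2, Dstn, Ezr, Eps8, Vcl, Ssh2 and the immediate early genes. The counting, calling and variance steps were tested on simulated data. Gene positions and coding sequences came from GENCODE M21, promoters from RefSeq. The barcode and scar libraries and the PCN cells were not analysed here.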

Additional observations from a re-analysis of the deposited data

How the results depend on the processing

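The values rerun under the alternatives were those of the members, the contractile list, Acta2, Egr1 and Arpc2, and none of them changed direction. Other listed genes were not part of these alternatives. Between quintiles over all cells and within clusters, Col3a1 went from called higher (4.34) to called lower (0.37). No paired analysis was possible because each group had 1 sample and no test was made. The Tmsb4x level of 20875 CPM became 22613 with GFP, Scar, Malat1 and mitochondrial genes out of the total, 21582 with at least 1000 genes and 2000 UMIs, 21088 with at most 10% mitochondrial UMIs and 20753 without the 10% of cells with the highest Scrublet scores. The ratio of 2.12 in the most mesenchymal cluster became 2.09, 2.10, 2.10 and 2.18 in the same order.

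The variance-to-mean ratio of 16.5 became 16.7 with the stricter minimum, 17.0 without high Scrublet scores, 11.8 and 27.9 with thinning to 1000 and 2500 UMIs, and 18.8 with a total taken outside Tmsb4x, GFP, Scar and Malat1. The share of 27.4% between clusters became 29.1% with the stricter minimum, 27.5% with the mitochondrial limit, 28.9% without high Scrublet scores, 26.3% and 28.8% at resolutions 0.3 and 1.0, 29.1% with the members kept in the features, 30.6% and 30.9% with thinning to 1000 and 2500 UMIs, and 27.5% with another seed. In alternatives chosen after seeing the data, leaving out cluster 4 gave a ratio of 11.4 and a share of 13.4%, and leaving out cluster 6 gave 16.2 and 26.4%.

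The correlation of 0.54 with the contractile list became 0.53 and 0.58 with thinning to 1000 and 2500 UMIs and 0.47 without cluster 4. Its value of 0.39 within clusters became 0.34 and 0.41 at these depths, 0.41 at resolution 0.3, 0.37 with the members kept in the features and 0.40 with the outside total. The correlation of 0.46 with Actb became 0.48 and 0.47 at these depths. The 13 member calls became 8 when a ratio of 2 was asked for and 25 when a lower ratio was allowed. The Tmsb4x ratio of the Malat1-richest cluster to all other cells was 0.18. It became 0.87 with at least 1000 genes and 2000 UMIs, a limit above the median of 1214 UMIs in cluster 6. In the other settings it ranged from 0.04 to 0.27. One culture, doublets that could not be removed and a median of 2955 UMIs per cell limit all values, and the causes of these shifts were not tested.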

Other observations

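Other gene groups also differed along Tmsb4x. The S100 genes, which encode small calcium-binding proteins, had a summed correlation of 0.17 with Tmsb4x over all cells and 0.28 within clusters, and 3 of 8 were called higher in the top Tmsb4x quintile and 1 lower, against 1 higher and none lower within clusters. The background over all tested genes was 7.84% called higher and 16.6% lower over all cells, and 1.99% higher and 9.73% lower within clusters. Within clusters S100a6 alone reached a correlation of 0.27, the same as the cyclophilin gene Ppia, although over all cells they stood at 0.15 and 0.20. Interferon-responding markers gave 4 of 6 tested genes called higher over all cells and 3 of 6 within clusters, while the interferon-responding-like cluster 9 had one of the lower Tmsb4x levels, at 12966 CPM. Of 7 tested simple epithelial markers 6 were called lower over all cells and none of 6 within clusters. Glycolysis genes gave no call in either direction among 9 tested, with a median ratio of 1.06.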
